A study of Mus musculus with 42 samples.

Results

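Liver mRNA of female C57BL/6 mice given pregnenolone-16alpha-carbonitrile (PCN) was compared with that of vehicle mice on the same diet, in 11 of the 42 arrays of the series. The 6 PCN mice were injected i.p. with 40 mg/kg PCN at an age of 16 weeks, and the 5 vehicle mice received corn oil at 19 weeks. All 11 had eaten the Western diet with 1% (w/w) cholesterol for 1 week before the injection and were killed 24 hours after it, and the left lateral liver lobe was taken. The arrays were chosen by their labels: 6 PCN mice, and vehicle mice 1, 3, 4, 5 and 6, because no scanner intensities of vehicle mouse 2 were used here. Beside them stand 6 mice on the same diet given 3 mg/kg TCPOBOP at 18 weeks, and a separate set on standard chow with 6 PCN mice (40 mg/kg, 18 to 19 weeks) and 5 vehicle mice (19 weeks), hybridised against another reference pool. The labels name no engineered allele for any of these mice. As the PCN mice were younger than the vehicle mice, age and treatment cannot be told apart in any difference on the cholesterol diet.

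PCN is a synthetic steroid and the classical ligand of the mouse pregnane X receptor (PXR, Nr1i2), a nuclear receptor that binds DNA together with the retinoid X receptor and switches on genes for the uptake, oxidation and export of drugs and bile acids. Its best known targets are the Cyp3a cytochromes P450 and the organic anion carrier Slco1a4. TCPOBOP is the classical ligand of mouse CAR (Nr1i3), a related receptor known for inducing Cyp2b genes. Dietary cholesterol lowers the expression of the enzymes of hepatic cholesterol synthesis through the SREBP2 transcription factor.

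Each spotted cDNA array gave the log2 ratio of 1 mouse liver over a pooled reference, so a level below 0 lies under that of the pool, and levels of different genes cannot be ranked. The Steroltalk array held 284 mouse probes for 277 genes. In the 11 arrays the median sample signal was 169.6 to 282.53 intensity units and 63.38% to 74.3% of the probes were above background (the spot mean over the background median plus 2 SD). Of 10 hepatocyte marker genes on the array all 10 were above background on most arrays, and their mean log2 ratio per mouse was -0.16 to 0.26 in vehicle and 0.03 to 0.15 in PCN mice. Of 4 adipocyte marker genes on the array 2 were above background on most arrays. The single macrophage marker and the single bile duct marker were not. The array held no gene of the lists for blood, stellate and endothelial cells. Arrays of the 2 groups correlated with each other over the genes at r from -0.06 to 0.88, and none of these 30 pairs was below -0.3. Between PCN and TCPOBOP arrays 19 of 36 pairs were below -0.3, down to -0.55, with the dyes fixed by the labels. Between vehicle and TCPOBOP arrays 11 of 30 pairs were below -0.3, down to -0.49. By the paper, the reference was a pool of the study's own RNA samples. Groups that differ can then lie on opposite sides of 0, so a negative r is not read as an opposite response. The number of arrays limits the precision.

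Few of the measured genes passed the test between PCN and vehicle mice. In a limma fit of vehicle, PCN and TCPOBOP on the cholesterol diet, 3 of 277 genes passed an adjusted p of 0.05 (1.08%). The xenobiotic P450 gene Cyp3a25 and the carrier gene Slco1a4 were up-regulated (2 genes, 0.722% of all), and 1 gene, which is not reported here, was lower. The split was 2 higher and 0 lower after median centring, and 3 higher and 0 lower with loess on the spikes or without normalization. At an unadjusted p of 0.05 there were 23 higher genes (8.3%) and 12 lower genes (4.33%). The median log2 fold change over all genes was 0.00 and 80.51% of the genes moved by less than 0.25. The lowest and the highest level did not overlap between the groups in 4 genes (1.44%), among them Cyp3a25, Slco1a4 and Crem. In liver tissue, fewer cells of a type and less RNA per cell cannot be told apart.

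Cyp3a25 belongs to the CYP3A family of monooxygenases, which oxidise steroids, bile acids and many drugs. Its log2 ratio was -1.61, -1.07, -1.12, -1.05 and -1.26 in vehicle mice 1, 3, 4, 5 and 6, and -0.54, 0.10, -0.41, -0.02, -0.38 and -0.28 in PCN mice 1 to 6. Every PCN mouse lay above every vehicle mouse, with a gap of about the width of the vehicle group. The log2 fold change was 0.96 (SE 0.14, limma adjusted p = 0.00081), a 1.95-fold difference with a 95% interval of 1.59 to 2.39. Within the 8 arrays whose spot positions were written in millimetres (4 per group) it was 0.85 with an adjusted p of 0.0055. Within the 3 in micrometres, with 1 vehicle mouse that was assumed to vary like the other groups, it was 1.39 with an adjusted p of 0.69.

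The other 3 Cyp3a genes on the array had log2 fold changes of 0.59 to 0.94 and did not pass the adjusted threshold. Cyp3a11, the main drug-oxidising CYP3A of mouse liver, was at -1.62, -0.45, -0.95, -0.62 and -2.15 in vehicle mice and at -0.65, -0.31, -0.11, -0.23, -0.02 and -0.11 in PCN mice. Vehicle mice 1 and 6 were the lowest, and PCN mouse 1 overlapped with vehicle mice 3 and 5. Its log2 fold change was 0.92 (SE 0.24, adjusted p = 0.104). Cyp3a41a, a CYP3A gene that is expressed mainly in females, was at -1.66, -0.23, -0.79, -0.56 and -2.05 in vehicle mice and at -0.44, -0.26, -0.12, 0.01, 0.02 and 0.06 in PCN mice, with a log2 fold change of 0.94 (SE 0.27, adjusted p = 0.118). The same vehicle mice 1 and 6 were the lowest. Vehicle mice differed more from each other than PCN mice did in both genes, with an SD of 0.71 against 0.23 for Cyp3a11 and 0.77 against 0.20 for Cyp3a41a. Cyp3a13 was at -1.45, -0.40, -0.86, -1.0 and -0.98 in vehicle mice and at -0.85, -0.25, 0.08, -0.49, -0.27 and -0.27 in PCN mice. Its log2 fold change was 0.59 (SE 0.16, adjusted p = 0.104), and vehicle mouse 3 lay within the PCN group. In a fit with all groups of the same reference pool, all 3 passed at the same fold changes (adjusted p of 0.0073 for Cyp3a11, 0.0174 for Cyp3a13 and 0.0171 for Cyp3a41a). That fit took its spread also from groups outside the comparison. Among them were the TCPOBOP mice on the cholesterol diet, whose Cyp3a11 and Cyp3a41a spots were saturated on 5 of 6 arrays. These mice are in the main fit too. Cyp3a11 also passed with loess on the spikes (0.049), and Cyp3a11 and Cyp3a41a without normalization (0.029 and 0.044). Without vehicle mouse 3, Cyp3a11, Cyp3a13 and Cyp3a41a all passed, with adjusted p of 0.018, 0.018 and 0.022. Without vehicle mouse 5 Cyp3a11 passed (0.046), and without PCN mouse 1 Cyp3a13 passed (0.031). Cyp3a transcripts are much alike, so cDNA probes of this family can share signal, and the members cannot be held fully apart. The same limit holds for the Cyp2b, Cyp2c and Saa genes.

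**Figure D1:**
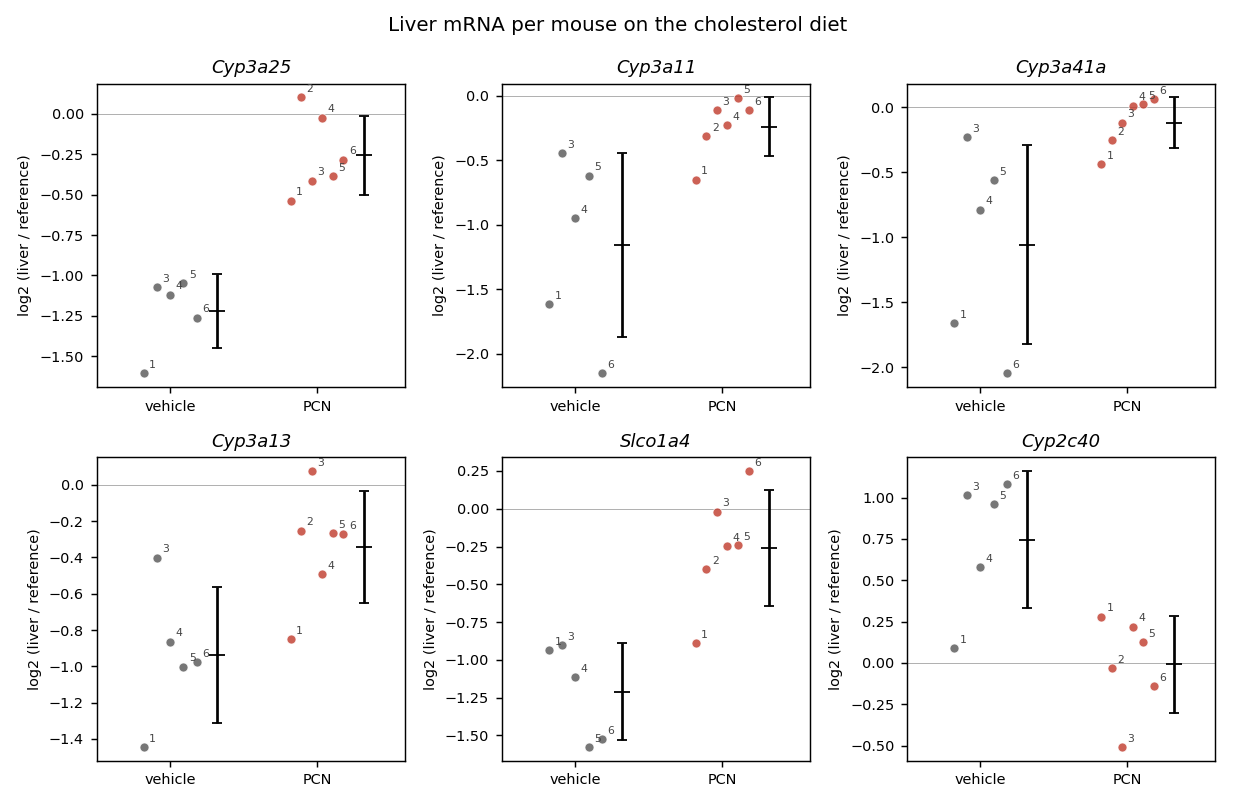
Log2 ratio of liver over reference pool (vertical axis, 1 panel per gene) in each vehicle and PCN mouse on the cholesterol diet, numbered by mouse, with the mean and SD as black bars. The groups do not overlap for Cyp3a25 and Slco1a4, vehicle mice 1 and 6 are lowest for Cyp3a11 and Cyp3a41a, and vehicle mouse 1 lies within the PCN group for Cyp2c40.

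The promoters of these P450 genes and of Slco1a4 are shown because the genes had the highest fold changes of the xenobiotic P450 and transporter lists and because PXR is known to bind pairs of the hexamer AGTTCA or AGGTCA. Each window runs from 250 bases before to 50 bases after the gene start (RefSeq, GRCm38.p6), with either hexamer in capitals on both strands. Read on the opposite strand, AGTTCA appears as TGAACT, and AGGTCA as TGACCT. The genes lie on the minus strand of chr5:146009568-146009867 (Cyp3a25), chr5:145879805-145880104 (Cyp3a11), chr5:145720087-145720386 (Cyp3a41a) and chr6:141856171-141856470 (Slco1a4), and the sequences read 5′ to 3′ along the gene.
Cyp3a25: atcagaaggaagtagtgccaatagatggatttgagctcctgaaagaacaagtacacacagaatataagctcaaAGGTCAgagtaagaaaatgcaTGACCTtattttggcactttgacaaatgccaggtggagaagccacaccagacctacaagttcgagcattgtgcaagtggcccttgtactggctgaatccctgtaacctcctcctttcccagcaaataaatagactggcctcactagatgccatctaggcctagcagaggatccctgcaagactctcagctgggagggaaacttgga
Cyp3a11: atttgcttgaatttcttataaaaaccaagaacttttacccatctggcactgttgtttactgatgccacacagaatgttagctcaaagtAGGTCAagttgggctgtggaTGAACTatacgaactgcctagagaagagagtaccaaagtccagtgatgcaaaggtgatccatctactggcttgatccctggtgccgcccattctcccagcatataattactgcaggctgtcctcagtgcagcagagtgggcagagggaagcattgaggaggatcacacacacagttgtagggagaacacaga
Cyp3a41a: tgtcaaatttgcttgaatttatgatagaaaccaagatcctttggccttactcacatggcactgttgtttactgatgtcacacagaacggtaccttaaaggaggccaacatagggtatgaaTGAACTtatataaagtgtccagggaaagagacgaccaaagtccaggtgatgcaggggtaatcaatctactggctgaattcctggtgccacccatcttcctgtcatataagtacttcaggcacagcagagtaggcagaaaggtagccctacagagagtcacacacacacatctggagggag
Slco1a4: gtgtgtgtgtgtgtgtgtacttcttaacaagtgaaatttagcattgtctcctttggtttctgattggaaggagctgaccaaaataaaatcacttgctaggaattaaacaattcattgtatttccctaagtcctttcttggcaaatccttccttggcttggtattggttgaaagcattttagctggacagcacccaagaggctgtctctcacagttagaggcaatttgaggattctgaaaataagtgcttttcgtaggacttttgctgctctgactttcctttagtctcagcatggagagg
The Cyp3a25 window held AGGTCA at base -177 and, on the other strand, at -156. In Cyp3a11 AGGTCA began at -162 and the reverse of AGTTCA at -142, and in Cyp3a41a the reverse of AGTTCA began at -130. The Slco1a4 window held none. Over 27025 promoters of the same length, 14.05% held AGTTCA, 16.21% held AGGTCA and 27.74% held at least 1 of them, so a match is common. In a global alignment the Cyp3a11 and Cyp3a41a windows were 71.56% identical, against 57.18% for Cyp3a25 and Cyp3a11 and 48.6% for Cyp3a25 and Slco1a4.

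Slco1a4 (OATP1A4) carries bile acids, steroid conjugates and drugs such as digoxin into the hepatocyte. It was at -0.93, -0.90, -1.12, -1.58 and -1.52 in vehicle mice and at -0.89, -0.40, -0.02, -0.25, -0.24 and 0.25 in PCN mice. The groups did not overlap, but PCN mouse 1 at -0.89 was next to vehicle mouse 3 at -0.90. The log2 fold change was 0.95 (SE 0.18, adjusted p = 0.0084), or 1.93-fold with a 95% interval of 1.49 to 2.51. It was 1.21 (adjusted p = 0.0055) within the arrays in millimetres and 0.29 (adjusted p = 0.92) within those in micrometres, which held PCN mouse 1.

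Among the 19 xenobiotic P450 genes on the array, 1 was called higher and none lower, against 0.722% of all genes called higher. At an unadjusted p of 0.05, 7 were higher and 1 lower, against 8.3% and 4.33% of all genes. Their median log2 fold change was 0.27, against 0.00 over all genes. The 7 comprised the 4 Cyp3a genes, Cyp2a4 at 0.32 (SE 0.13), Cyp2e1, which oxidises ethanol and other small solvents, at 0.30 (SE 0.12), and Cyp2g1 at 0.28 (SE 0.13). The lower one was Cyp2c40, an arachidonic acid oxidising member of the Cyp2c family. Cyp2c40 was at 0.09, 1.01, 0.58, 0.96 and 1.08 in vehicle mice and at 0.28, -0.03, -0.51, 0.22, 0.13 and -0.14 in PCN mice. Vehicle mouse 1 lay within the PCN group. The log2 fold change was -0.75 (SE 0.20, adjusted p = 0.104), and it passed at 0.018 without vehicle mouse 1.

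The Cyp2b genes, known targets of CAR, did not pass. Cyp2b10 was at -1.42, -1.90, -2.01, -1.84 and -2.88 in vehicle mice and at -1.88, -1.79, -1.86, -1.66, -1.76 and -1.53 in PCN mice. All PCN mice lay within the vehicle range. The log2 fold change was 0.27 with a 95% interval of -0.10 to 0.63 (adjusted p = 0.51). This interval takes its spread from all 3 groups, with an SD of 0.53 in vehicle, 0.13 in PCN and 0.11 in TCPOBOP mice. It may be too narrow for the 2 compared groups, and sets no firm upper bound on a rise. The same holds for Cyp2b9 and Cyp2b13, with vehicle SDs of 0.52 and 0.61. Cyp2b9 was at 0.21 (-0.17 to 0.58) and Cyp2b13 at 0.37 (-0.07 to 0.81). Cyp1a2, which oxidises caffeine and aromatic amines, was at 0.29 (-0.17 to 0.75). Of the heme genes, Alas1, whose enzyme starts heme synthesis and limits its rate, was at 0.18 (-0.30 to 0.66) and the heme oxygenase gene Hmox1 at 0.10 (-0.18 to 0.39).

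Of 13 bile acid and xenobiotic transporter genes, Slco1a4 was the only one called, and 2 were higher and none lower at an unadjusted p of 0.05 (8.3% and 4.33% of all genes). The list median was 0.09. The second was Abcc3 (MRP3), which exports bile acids and glucuronides to the blood. Abcc3 was at -0.86, -0.96, -0.90, -1.47 and -1.71 in vehicle mice and at -0.95, -0.47, -0.63, -1.17, -0.63 and -0.67 in PCN mice. In 4 of 6 PCN mice it exceeded every vehicle mouse. Its log2 fold change was 0.43 (SE 0.16, adjusted p = 0.25). The canalicular exporters Abcc2 and Abcb11 (the bile salt export pump) were at 0.24 (95% interval -0.02 to 0.50) and -0.03 (-0.23 to 0.17). The hepatic uptake carriers Slco1b2, Slc10a1 and Slco1a1 were at 0.21 (-0.11 to 0.53), 0.07 (-0.15 to 0.28) and -0.36 (-0.80 to 0.09).

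None of 18 cholesterol synthesis genes passed, yet 16 had a log2 fold change above 0, and the list median was 0.54 against 0.00 over all genes. At an unadjusted p of 0.05, 9 of the 18 were higher and none lower, against 8.3% and 4.33% of all genes. The largest was Msmo1, the sterol C4-methyl oxidase of the late pathway. Msmo1 was at -0.96, -2.71, -2.25, -2.62 and -2.97 in vehicle mice and at -1.51, -1.52, 0.42, -1.30, -1.02 and -0.57 in PCN mice. Vehicle mouse 1 stood apart from the other 4 vehicle mice and lay inside the PCN group, and PCN mouse 3 was the highest of all 11. The log2 fold change was 1.39 (SE 0.44, adjusted p = 0.187), with a 95% interval of 0.46 to 2.31, and it passed at 0.044 without vehicle mouse 1.

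Of the early pathway, from acetyl units to farnesyl diphosphate, Hmgcs1 and Fdps are given by mouse. Hmgcs1, which makes the HMG-CoA of the mevalonate route, was at -0.44, -2.12, -1.29, -1.20 and -1.93 in vehicle mice and at -0.99, -1.43, 0.69, -0.84, -0.72 and -0.47 in PCN mice, a log2 fold change of 0.77 (SE 0.40). Fdps, the farnesyl diphosphate synthase, was at -0.36, -1.85, -1.24, -1.48 and -2.37 in vehicle mice and at -0.72, -1.39, 0.85, -0.34, -0.26 and -0.18 in PCN mice, a log2 fold change of 1.12 (SE 0.42, adjusted p = 0.25). In both genes vehicle mouse 1 was the highest vehicle mouse and PCN mouse 3 the highest PCN mouse. The mevalonate enzymes Mvk and Mvd were at 0.70 (SE 0.31) and 0.90 (SE 0.32), whereas Idi1, the isopentenyl diphosphate isomerase, was at -0.09 (SE 0.14). Of the enzymes that follow farnesyl diphosphate, the squalene synthase gene Fdft1 was at 0.86 (SE 0.34), the lanosterol synthase gene Lss at 0.69 (SE 0.32), the lanosterol demethylase gene Cyp51 at 1.04 (SE 0.44) and the sterol dehydrogenase gene Nsdhl at 0.82 (SE 0.37). Dhcr7 and Sc5d, which act on the last double bonds of the sterol ring, had smaller values of 0.30 (SE 0.13) and 0.32 (SE 0.17). Sqle, the squalene epoxidase, was above background in 3 PCN mice and no vehicle mouse. Its measured log2 fold change was 0.28 (SE 0.20, adjusted p = 0.58), with PCN mouse 3 at 0.12 and the other PCN mice at -0.80 to -0.63.

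The spread between mice in this pathway was shared by its genes. Vehicle mouse 1 was the highest vehicle mouse in 14 of the 18 genes, and PCN mouse 3 the highest PCN mouse in 16 of the 18. The median over the 18 genes was -0.23 in vehicle mouse 1 and -1.16, -0.96, -0.96 and -1.29 in vehicle mice 3, 4, 5 and 6. It was -0.68, -0.80, 0.42, -0.53, -0.30 and -0.21 in PCN mice 1 to 6. All 6 PCN mice exceeded vehicle mice 3 to 6, and PCN mice 3 and 6 also exceeded vehicle mouse 1. The arrays with micrometre positions were those of vehicle mouse 1 and PCN mice 1 and 2. Within them the list median of the log2 fold change was -0.46, and within the 8 arrays in millimetres it was 0.89, with 7 of 18 genes called higher, against 9 of all 277 genes (3.25%) (Msmo1 at 2.02, adjusted p = 0.011). With the position unit as a block it was 0.57 with no gene called. The unit is only how the spot positions were written. Whether anything behind it contributed was not tested beyond these values.

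**Figure D2:**
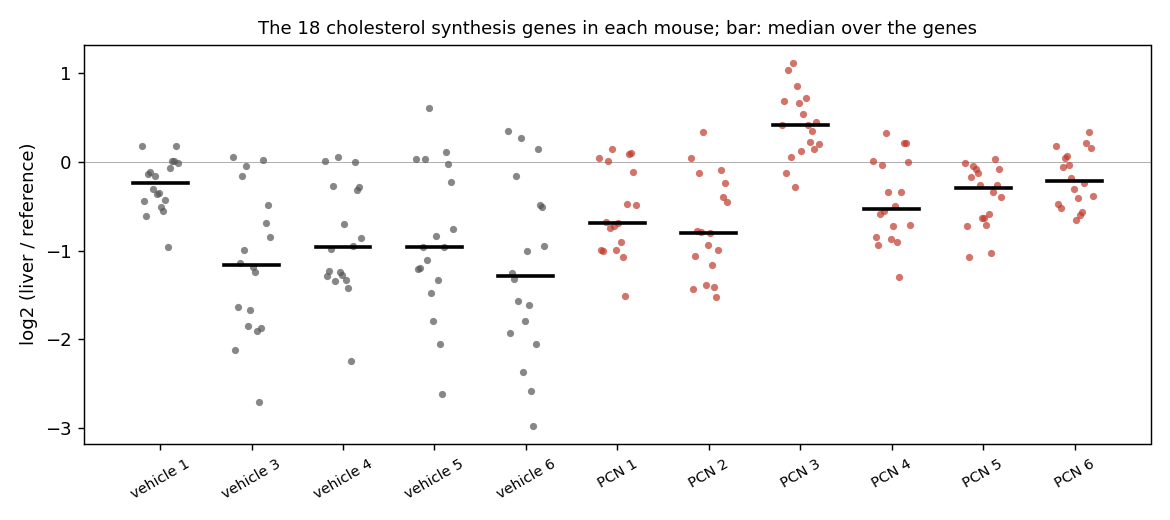
Log2 ratio of liver over reference pool (vertical axis) of the 18 cholesterol synthesis genes in each vehicle and PCN mouse on the cholesterol diet (horizontal axis), 1 point per gene, with the median over the genes as a bar. The medians of PCN mice run from -0.80 to 0.42, above vehicle mice 3 to 6, whereas vehicle mouse 1 at -0.23 lies among them.

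Of 8 genes of the SREBP pathway, which senses sterols and drives these enzymes, none passed, and the list median was 0.03. The transcription factor genes Srebf1 and Srebf2 were at -0.08 (SE 0.05) and 0.01 (SE 0.06), but neither was above background on any of the 11 arrays. Insig1, which retains the SREBPs in the endoplasmic reticulum, was at 0.30 (SE 0.18). Mbtps1, the site-1 protease that releases them, was at -0.76, -1.12, -1.03, -1.04 and -0.85 in vehicle mice and at -0.82, -0.59, -0.27, -0.45, -0.37 and -0.34 in PCN mice. In 5 of 6 PCN mice it exceeded every vehicle mouse. Its log2 fold change was 0.48 (SE 0.17, adjusted p = 0.225), and the spot was above background on 2 arrays of each group. Mbtps1 passed in a limma fit of only the 2 compared groups (adjusted p = 0.042) and after plain background subtraction (0.044).

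Of 7 bile acid synthesis genes none passed even at an unadjusted p of 0.05, and the median was 0.07. Cyp7a1, which starts the classical route and limits its rate, was at -0.09 (95% interval -0.46 to 0.28). Cyp8b1, which sets the share of cholic acid, was at 0.19 (-0.39 to 0.77) and Cyp27a1, the first enzyme of the alternative route, at 0.26 (-0.01 to 0.53).

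The remaining lists had medians between -0.16 and 0.05 and no called gene. In the 29 nuclear receptor and co-regulator genes the log2 fold changes ran from -0.20 (Nr2f2) to 0.24 (Rarb), with PXR (Nr1i2) itself at -0.11 (SE 0.07) and CAR (Nr1i3) at 0.22 (SE 0.16). Of 10 circadian clock genes 9 lay below 0 and the highest was Nr1d2, the REV-ERBbeta receptor, at 0.68 (SE 0.26, adjusted p = 0.25). The acute phase genes ran from -0.33 (C9) to 0.70 (Saa2, SE 0.70). The SE of Saa2 was pooled over vehicle, PCN and TCPOBOP mice and is not the spread of the 2 compared groups alone. In the glucose and glycogen list the lowest was Crem, a cAMP-responsive transcription factor gene, whose groups did not overlap (-0.29, SE 0.09, adjusted p = 0.187). Igf1, the growth hormone-dependent growth factor, was at 0.41 to 0.69 in vehicle mice and at -0.10 to 0.44 in PCN mice. Its log2 fold change was -0.41 (SE 0.17, adjusted p = 0.295). This SE also holds the spread of the TCPOBOP mice, with an SD of 0.45 against 0.10 in vehicle and 0.19 in PCN mice. In a fit of only the 2 compared groups Igf1 passed an adjusted p of 0.05. Among 4 reference genes, Actb was at -0.65 (SE 0.22, adjusted p = 0.225), and the list median was -0.11.

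**Figure D3:**
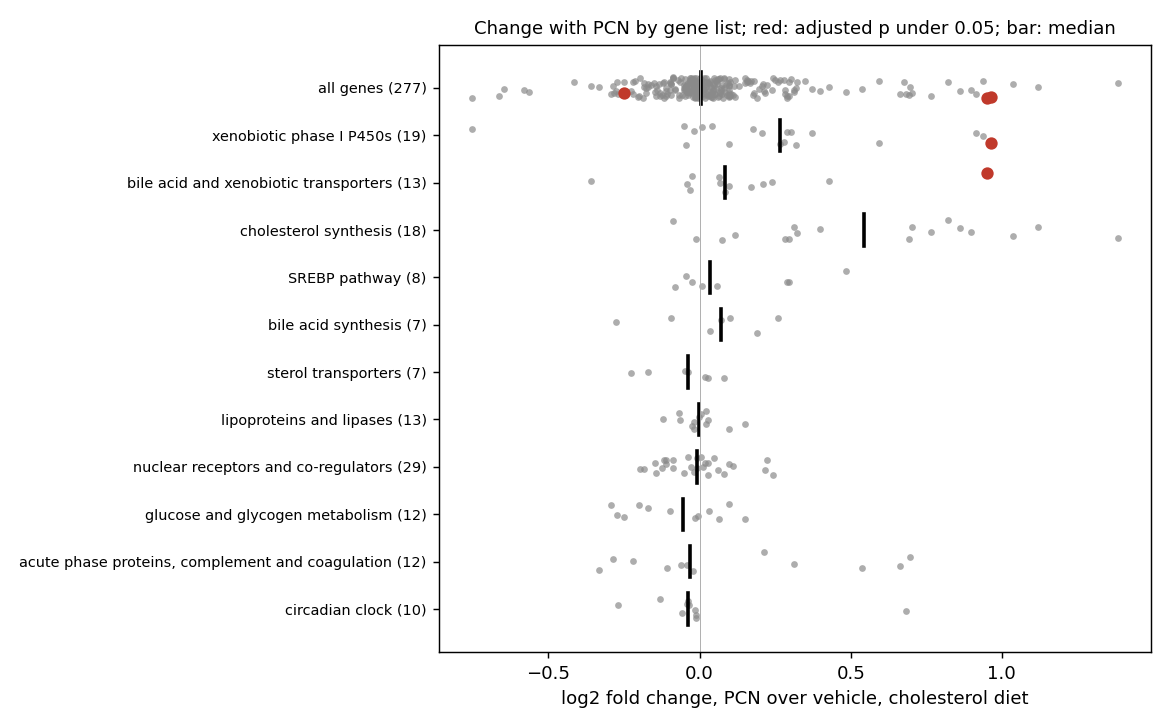
Log2 fold change of PCN over vehicle on the cholesterol diet (horizontal axis) for all 277 genes and for 11 gene lists (rows, with the number of genes), 1 point per gene, the median as a bar and called genes in red. In the lists only Cyp3a25 and Slco1a4 are red, and the cholesterol synthesis list has the highest median, 0.54, with no called gene.

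PCN and TCPOBOP were compared directly between their own mice, at doses of 40 and 3 mg/kg, to show where the response to a PXR ligand differed from that to a CAR ligand. Of 277 genes, 33 were higher (11.9%) and 43 lower (15.5%) in PCN than in TCPOBOP mice at an adjusted p of 0.05. With loess on the spikes 17 were higher and 43 lower, and without normalization 8 and 20. Among the xenobiotic P450s 9 of 19 were lower with PCN (15.5% of all genes) and 1 was higher (11.9%), which was Cyp2e1 at 0.41 (SE 0.12, adjusted p = 0.0139). Cyp2b10 was at 0.99 to 1.30 in TCPOBOP mice and -1.88 to -1.53 in PCN mice, 7.4-fold higher with TCPOBOP (log2 fold change -2.89, SE 0.17, adjusted p = 2.2e-09). Cyp2b13 and Cyp2b9 were at -2.61 (SE 0.20) and -2.17 (SE 0.17). The lowest TCPOBOP mouse exceeded the highest PCN mouse in all 3 Cyp2b genes. How many of all 277 genes separated these mice in this way was not counted.

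The 2 genes called higher with PCN than with vehicle were higher still with TCPOBOP. Cyp3a25 was at 0.28 to 0.90 in TCPOBOP mice, which gave a PCN minus TCPOBOP difference of -0.81 (SE 0.13, adjusted p = 0.0002). Slco1a4 was at 0.08 to 0.64 in TCPOBOP mice, with a difference of -0.59 (SE 0.17, adjusted p = 0.0161). Cyp3a13 differed by -1.20 (SE 0.16). The spots of Cyp3a11 and Cyp3a41a were saturated on 5 of 6 TCPOBOP arrays and on no PCN array, so their measured differences of -0.47 and -0.55 may be too small in size and are not read as a test. Both comparisons share the PCN mice, and doses and ages differ between the compounds.

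Other genes separated the compounds without a called response to PCN. Alas1 was at 0.16 to 1.38 in TCPOBOP mice against -1.32 to -0.79 in PCN mice (difference -1.90, SE 0.22, adjusted p = 4.6e-06). Abcc3 differed by -1.60 (SE 0.16), Cyp1a2 by -1.48 (SE 0.21), Cyp2a4 by -1.23 (SE 0.12) and the retinoic acid hydroxylase gene Cyp26a1 by -1.57 (SE 0.20). Ppp1r3c, a subunit that targets protein phosphatase 1 to glycogen, was at -2.69 to -1.52 in TCPOBOP mice and at -0.36 to 0.39 in PCN mice (difference 2.24, SE 0.21, adjusted p = 6.2e-07). The acute phase apolipoprotein genes Saa1, Saa2 and Saa3 had the largest differences, 3.79 (SE 0.65), 3.89 (SE 0.67) and 3.27 (SE 0.61). For Saa1, TCPOBOP mice 1 to 6 were at -2.79, -4.20, 0.34, -4.26, -4.33 and -4.29, and PCN mice 1 to 6 at 0.23, -0.42, 1.20, 0.46, 0.69 and 1.05. TCPOBOP mouse 3 lay within the PCN range, and its Cyp2b10 level of 0.99 was near those of the other 5 mice. Of the 6 TCPOBOP arrays, its array had the lowest share of probes above background (65.14%). It also had the lowest correlation with the ratios deposited by the authors (r = 0.92). Whether array quality contributed was not tested. Without TCPOBOP mouse 3 the Saa1, Saa2 and Saa3 differences were 4.51 (SE 0.34), 4.62 (SE 0.36) and 3.93 (SE 0.32). In cholesterol synthesis 2 of 18 genes were lower and 1 was higher with PCN, shares below the 15.5% and 11.9% over all genes, and the list median of the difference was -0.14. For Msmo1 and Fdps the difference was -0.59 (95% interval -1.47 to 0.30) and 0.05 (-0.80 to 0.90).

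**Figure D4:**
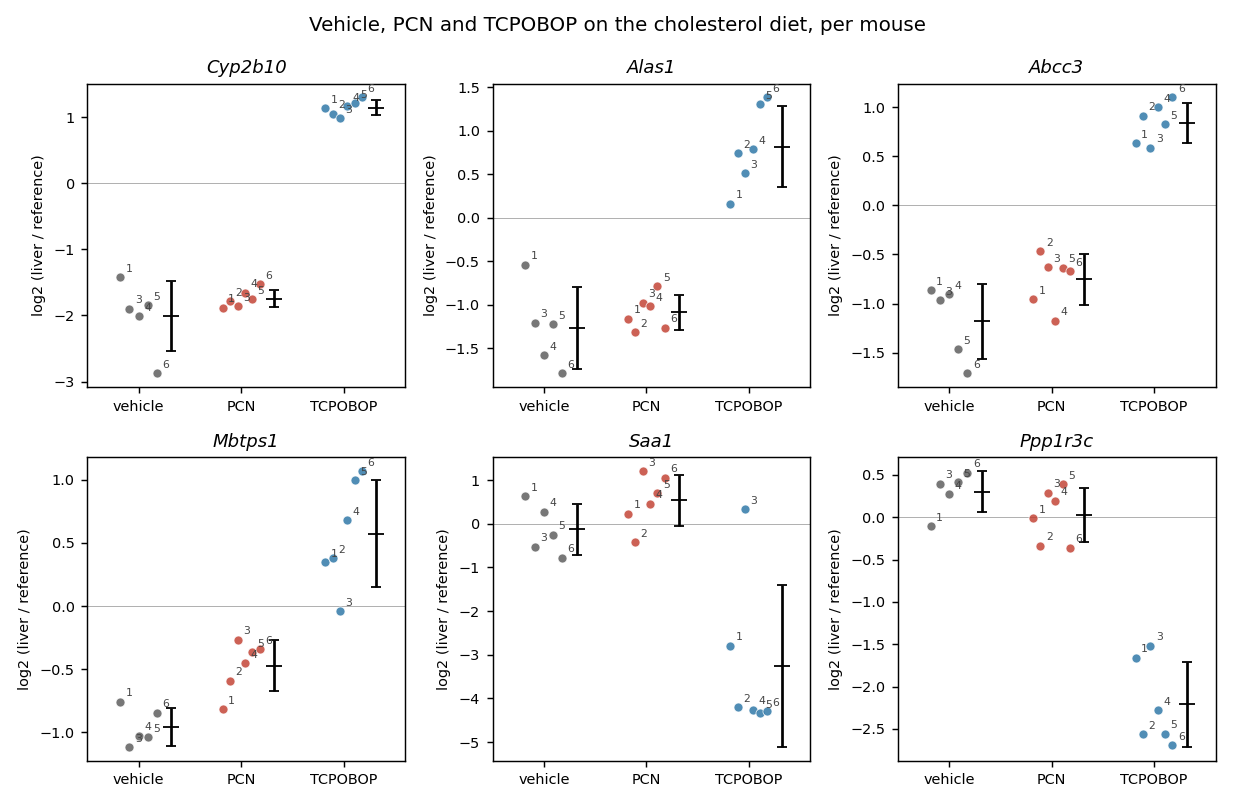
Log2 ratio of liver over reference pool (vertical axis, 1 panel per gene) in each vehicle, PCN and TCPOBOP mouse on the cholesterol diet, numbered by mouse, with the mean and SD as black bars. PCN mice lie near vehicle mice for Cyp2b10, Alas1, Saa1 and Ppp1r3c, and TCPOBOP mouse 3 is the single TCPOBOP mouse near them for Saa1.

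PCN on standard chow, in other mice of the same strain and sex, was fitted separately. There 7 of 277 genes were called (2.53%), and Cyp3a25 and Slco1a4 were among them, that is 2 of the 3 genes called on the cholesterol diet and 2 of the 7 called on standard diet. The 7 were 4 higher and 3 lower genes, against 1 higher and 5 lower on the deposited ratios and 0 and 1 with loess on the spikes. Neither Cyp3a25 nor Slco1a4 was called in these alternatives. Cyp3a25 rose by 0.89 (SE 0.20, adjusted p = 0.040), Slco1a4 by 0.62 (SE 0.14, adjusted p = 0.041), Cyp3a11 by 0.99 (SE 0.19, adjusted p = 0.028) and Cyp3a41a by 1.11 (SE 0.18, adjusted p = 0.0071), beside 0.96, 0.95, 0.92 and 0.94 on the cholesterol diet. In this set Ppp1r3c fell by 0.82 (SE 0.17, adjusted p = 0.028) and the apolipoprotein gene Apoa5 fell by 0.49 (SE 0.11, adjusted p = 0.037), and 1 more lower gene is not reported here. When each of the 11 mice was left out in turn, Cyp3a41a passed in 11 of 11 fits, Cyp3a11 in 6, Ppp1r3c in 5, Cyp3a25 in 3, and Slco1a4 and Apoa5 in 2 each. With the mouse number as a replicate block 1 gene was called, which was none of the 6 named.

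No gene passed the test of the difference between the diets in limma (0 of 277, against 28 at an unadjusted p of 0.05, lowest adjusted p 0.172). Array set, reference pool, diet and age cannot be told apart in it. PCN mice were 16 weeks and vehicle mice 19 weeks old on the cholesterol diet, against 18 to 19 and 19 on standard chow. For Cyp3a25 the difference, cholesterol minus standard diet, was 0.07 with a 95% interval of -0.45 to 0.60, and for Slco1a4 it was 0.33 (-0.20 to 0.86). For Msmo1 it was 1.32 (0.32 to 2.32, adjusted p = 0.325), and the median over the 18 cholesterol synthesis genes was 0.36, against 0.03 over all genes. Cyp2c40 was at -0.93 (-1.47 to -0.40, adjusted p = 0.172), with a fold change of 0.18 (SE 0.15) on standard chow. Saa1 was at 0.66 (SE 0.68) on the cholesterol diet and at -1.05 (SE 0.37) on standard chow, a difference of 1.72 (0.65 to 2.79, adjusted p = 0.172). The SE of 0.68 also holds the spread of the TCPOBOP mice, of which mouse 3 stood apart for Saa1. The fit of the diet difference held no TCPOBOP mice. The arrays of the standard diet set were dimmer, with median sample signals of 23.6 to 137.27, and 52.46% to 69.72% of their probes were above background.

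**Figure D5:**
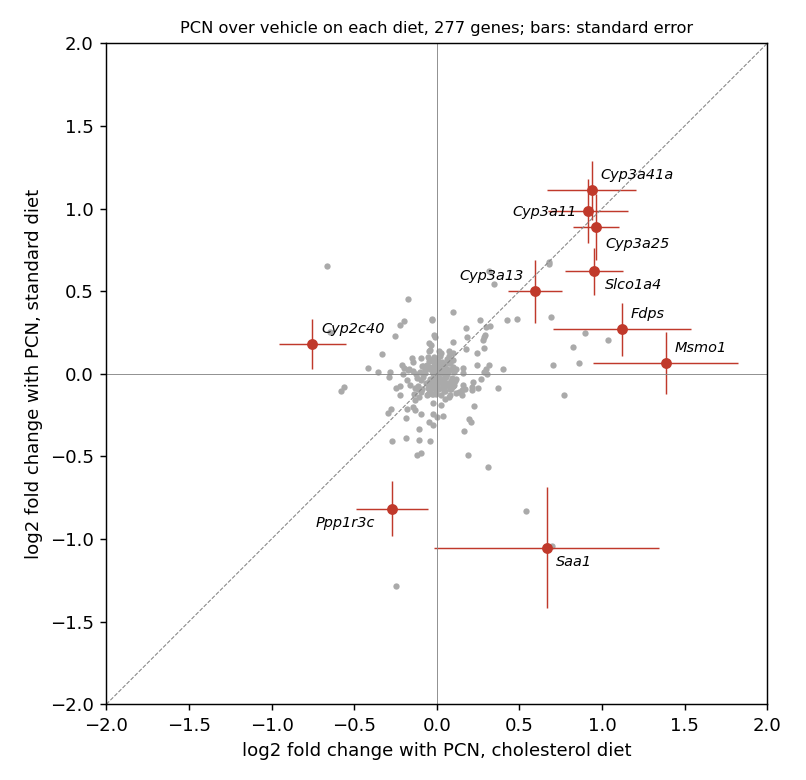
Log2 fold change of PCN over vehicle on standard diet (vertical axis) against that on the cholesterol diet (horizontal axis), 1 point per gene, with 10 genes named and their standard errors as bars. Cyp3a25, Cyp3a11, Cyp3a41a, Cyp3a13 and Slco1a4 lie between 0.50 and 1.11 on both axes, while Msmo1 and Fdps are above 1 on the cholesterol diet and at 0.07 and 0.27 on standard diet.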

How the data were processed

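Liver RNA of single mice (Cy3) was hybridised with pooled reference RNA (Cy5) to 2-colour Steroltalk cDNA arrays. For each array the authors deposited spot and local background intensities as scanned, before normalization, and also a table of processed log2 ratios whose centring is not given in the sources used here. Both channels' intensities were background-corrected with limma 3.58.1 in R 4.3.3 (normexp, offset 50) and loess-normalized within arrays over the mouse spots. Spots of a probe were averaged, and of several probes of a gene the brightest was kept. The ratios correlated with the deposited log2 ratios at r from 0.94 to 0.99 in the 11 arrays, and at 0.69 to 0.98 in the standard diet set. Vehicle mouse 2 on the cholesterol diet was used only in an alternative on the deposited ratios, and 1 file shared by 2 vehicle samples of the standard diet set was counted once. Of 284 probes, 220 matched a RefSeq symbol (GRCm38.p6), 51 a synonym and 13 kept the name in the file.

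Groups were fitted as means with lmFit and eBayes (PCN minus vehicle and PCN minus TCPOBOP in 1 fit of 17 arrays; the standard diet set alone; the diet difference over 4 groups). Tests are 2-sided, p-values are adjusted with Benjamini-Hochberg over the 277 genes, and log2 fold changes have moderated 95% intervals. The scripts were tested on simulated data. Replicates are separate mice. Vehicle and PCN mice were not treated as paired by their numbers (deviations of same-numbered mice correlated at -0.37 to 0.16 over 5 pairs). So few pairs cannot show that the numbers carry nothing shared, and on the cholesterol diet the position unit goes with the number. Named genes were all called genes, all members of 6 lists (xenobiotic P450s, heme, bile acid and xenobiotic transporters, cholesterol synthesis, SREBP pathway, bile acid synthesis), the 10 largest called differences of the other comparisons and the extremes of other lists. Igf1, Nr1i2 and Nr1i3 were added after their values were seen. The comparison, the lists and the tests were chosen with earlier results of these data known, and lists were described by counts and medians only. Some genes under this rule, 1 called gene among them, are not reported here. Promoters were searched with Python 3.11.15 and aligned with Biopython 1.88. Alternatives covered background correction, normalization, the filter on dim probes and the groups in the fit. They also covered the position unit, the replicate number as a block, array weights, the methods' t-test and leaving out each mouse.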

Additional observations from a re-analysis of the deposited data

Results flagged for a closer look

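Among 49 genes described for the vehicle and the PCN mice on the cholesterol diet (98 groups), 3 had a mouse far from the rest of its group by Dixon's test. Chance alone gives about 1 in 20. PCN mouse 2 was at 0.37 for Cyp2e1, against 0.05 to 0.11 in the other 5. PCN mouse 3 was at 0.51 for Cyp7a1, against -0.18 to -0.12, and at 0.12 for Sqle, against -0.80 to -0.63. PCN mouse 3 was also the highest PCN mouse in 16 of the 18 cholesterol synthesis genes.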

How the results depend on the processing

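The alternatives included other background corrections, normalizations, summaries and filters on dim probes, the replicate block, array weights and the position unit as a block. Under these the count of 3 genes called with PCN on the cholesterol diet stayed between 2 and 4 (3 with the replicate block). It was 5 in a fit of only the 2 compared groups, Igf1 and Mbtps1 among them, and 8 with all groups of the reference pool. It was 1 on the deposited ratios of the 2 groups (an alternative chosen after seeing the data) and 1 with the methods' t-test after Benjamini-Hochberg, 6 with that test at an FDR of 0.16 and 32 at its unadjusted p of 0.05. It was 7 in limma at an adjusted p of 0.16. Within the arrays in micrometres it was 0 and within those in millimetres 13. Leaving out each mouse gave 2 to 6 genes: 5 without vehicle mouse 1 and 6 without vehicle mouse 3. The 3 genes called without normalization were Cyp3a25, Cyp3a11 and Cyp3a41a. Cyp3a25 passed under 30 of 31 alternatives and Slco1a4 under 27 of 31, and their direction did not change under any of these. Besides the arrays in micrometres, Slco1a4 missed without normalization (limma adjusted p = 0.064) and on the deposited ratios of the 2 groups (0.059). It also missed with the methods' t-test after Benjamini-Hochberg (0.095).

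For PCN against TCPOBOP the count of 76 was 28 without normalization within arrays, 48 and 49 on the deposited ratios without and with vehicle mouse 2, 118 at an adjusted p of 0.16, 22 within the arrays in micrometres, and 59 to 80 when each mouse was left out. With the replicate block it was 77. On standard diet the count of 7 was 3 after plain background subtraction, 0 after median centring, 1 with loess on the spikes, 0 without normalization, 1 with the replicate block and 16 at an adjusted p of 0.16. After seeing the data these arrays were also split by the spike balance of the channels, which gave 1 gene on one side, 0 on the other and 7 with it as a block. Leaving out each mouse gave 2 to 7. The diet difference had 0 genes, and 0 to 1 when each mouse was left out (Cyp2c40 without vehicle mouse 1). The median over all genes moved by more than 0.1 for PCN against TCPOBOP on the deposited ratios (to -0.09), on standard diet, to -0.12 with loess on the spikes, -0.25 without normalization and -0.18 on the deposited ratios, and in the diet difference, to 0.23 without normalization and 0.21 and 0.18 on the deposited ratios. The causes were not tested. Genes near the background, such as Mbtps1, Srebf1 and Srebf2, are limited by signal.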
